A study of Mus musculus with 8 samples.

Results

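The genes described here encode, in the nucleus, the proteins of the mitochondrial respiratory chain and of the ATP synthase. They were chosen by name alone, as the protein-coding rows whose symbol begins with Nduf, Uqcr, Cox4 to Cox8 or Atp5, or is one of Sdha, Sdhb, Sdhc and Sdhd. This gave 92 genes out of 20229 protein-coding genes and 40178 genes of every type. By role there were 7 core subunits of complex I, 29 accessory subunits and 8 assembly factors of complex I, 4 subunits of complex II, 8 of complex III, 19 of complex IV and 17 of the ATP synthase. The last group holds Atp5s, a factor coupled to the enzyme rather than one of its subunits. In 87 of the 92 genes the counts were high enough for testing, and the other 5 (Cox4i2, Cox6a2, Cox8b, Cox8c and Ndufa4l2) never passed 5 counts in a library.

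RNA-seq was performed on intestinal epithelial cells (IECs) released from mouse colon and ileum by EDTA washes, at 8 weeks of age and without any challenge. DDX5KO animals were Ddx5 fl/fl and Villin1Cre+, so that the RNA helicase DDX5 was deleted from the whole intestinal epithelium. WT animals were Ddx5+/+ and carried Villin1Cre as well. Each genotype was represented by 2 mice, each of which gave 1 colon and 1 ileum library, for 8 libraries in all. Villin1Cre drives recombination in the intestinal epithelium, so other cells in a preparation keep Ddx5, and both genotypes carry the recombinase. Since the values come from bulk RNA, fewer cells of a type and less RNA per cell cannot be told apart. Each group holds 2 mice, so every p-value rests on few animals. In the genotype tests the spread is what is left after a block for the replicate number. In the tissue tests within a genotype and the interaction, 1 spread is shared by all groups. Those tests take the colon and ileum libraries of a mouse as independent.

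The respiratory chain passes electrons from NADH through complex I, or from succinate through complex II, to ubiquinone, then through complex III to cytochrome c and through complex IV to oxygen. Complexes I, III and IV pump protons across the inner mitochondrial membrane, and the ATP synthase uses the gradient to make ATP. Most subunits are encoded in the nucleus and a few in mitochondrial DNA, so that all complexes but complex II are assembled from both sources. In the gut, mature absorptive cells burn short-chain fatty acids in the colon and glutamine in the small intestine, both of which feed the chain.

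Many genes of this set are known targets of nuclear respiratory factor 1 (NRF1) and of the ETS factor GABPA, also called NRF2. Promoters from 250 bases before to 50 bases after the start were found in RefSeq (GRCm38.p6) for 75 of the 92 genes. The NRF1 motif, GCGCA and GCGC with any 1 base between them, searched as all others on both strands, was held by 19 of them (25.3%), against 5.19% of the 27025 genes with a promoter. The GABPA motif CCGGAAG was held by 18 (24%), against 9.93% of all genes. The YY1 motif AAGATGGC was present in 11 (14.7%, against 3.19%), and the ESRRA motif TCAAGGTCA in 2 (2.67%, against 0.466%). By contrast, the shares for the SP1 motif GGGGCGGGG (17.3% against 12.9%) and for CCAAT (44% against 41.1%) lay near those of all genes, and TATAAA was found in 6 promoters (8%, against 15.7%). The 75 genes are all protein coding, whereas no filter on gene type was applied to the 27025, so the 2 sets are not alike. A match of one motif could overlap a match of another, and the matches describe letters, not bound sites.

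To show what these promoters look like, 3 that hold NRF1 matches are printed first. Sdha, the flavoprotein of complex II, holds 3 within 120 bases (chr13:74350241-74350360, minus strand). Cox6a1, the complex IV subunit with the smallest unadjusted p in the colon genotype comparison, holds 2 and a GABPA match read on the other strand (chr5:115348959-115349138, minus strand). Atp5g2, one of the genes for subunit c of the ATP synthase, holds 1 (chr15:102671048-102671107, minus strand). They are followed by 3 genes with no NRF1 or GABPA match that appear in the tissue comparison: Uqcr10 (chr11:4704345-4704464, minus strand), Cox7a1 (chr7:30184051-30184170, plus strand) and the paralog of Cox7a1, Cox7a2 (chr9:79759854-79759973, minus strand). All are from GRCm38.p6, run 5′ to 3′ on the strand of the gene and lie in the bases just before the RefSeq start. The gene positions given later come from GENCODE, whose starts can differ. All printed stretches except that of Uqcr10 overlap the GENCODE span of their gene. Capitals mark the NRF1 and GABPA matches.
Sdha: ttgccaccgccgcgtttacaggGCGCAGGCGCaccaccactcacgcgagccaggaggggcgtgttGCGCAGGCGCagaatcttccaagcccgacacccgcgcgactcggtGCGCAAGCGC
Cox6a1: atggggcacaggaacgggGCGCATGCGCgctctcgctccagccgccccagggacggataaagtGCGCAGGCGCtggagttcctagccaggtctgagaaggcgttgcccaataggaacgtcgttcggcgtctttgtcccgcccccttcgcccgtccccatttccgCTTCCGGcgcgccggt
Atp5g2: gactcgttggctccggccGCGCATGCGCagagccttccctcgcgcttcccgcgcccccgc
Uqcr10: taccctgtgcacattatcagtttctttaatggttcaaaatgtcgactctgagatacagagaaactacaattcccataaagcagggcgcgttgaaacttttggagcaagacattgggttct
Cox7a1: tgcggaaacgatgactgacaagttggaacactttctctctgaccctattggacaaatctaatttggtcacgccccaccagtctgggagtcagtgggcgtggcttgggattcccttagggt
Cox7a2: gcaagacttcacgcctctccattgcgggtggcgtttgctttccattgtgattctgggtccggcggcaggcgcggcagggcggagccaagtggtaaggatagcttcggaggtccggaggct

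The 8 libraries held 11571061 to 22984283 counts in total, of which the 92 genes took 1.12% to 1.59%. The lowest share was that of DDX5KO ileum replicate 2, in which 3 repeat-like genes (Gm10800, Gm10801 and Gm21738) took 19.5% of all counts, against at most 4.04% in the other libraries. Ddx5 lay between 705 and 770 CPM (counts scaled to a common library total) in WT colon and between 354 and 367 in DDX5KO colon, a log2 difference of -1.04 (SE 0.09, edgeR adjusted p = 0.0867). In ileum it lay at 699 in both WT libraries and at 339 and 326 in the DDX5KO libraries (log2 difference -1.07, SE 0.18, adjusted p = 0.027). Markers of the epithelium summed to 8565 to 9604 CPM in colon and 11596 to 15565 CPM in ileum. T cell markers summed to 24.7 and 30.4 CPM in WT colon, 6.17 and 14.1 CPM in DDX5KO colon and 48.1 to 72.8 CPM in ileum. Summed markers of B and plasma cells, myeloid cells, endothelium and muscle stayed below 7.2 CPM in every library, and those of stroma below 14 CPM. No gene of these lists was at 0 in every library.

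Levels per length were compared first, as mean CPM per kb of exon over the 8 libraries. The length was the exon length deposited for the gene, which may exceed that of the transcripts present. The order and the medians depend on it. The median of the 87 tested genes was 61.5 CPM per kb, and levels ran from 1.04 for Cox6b2, the testis form of a complex IV subunit, to 602 for Cox8a, the common form of its complex IV subunit. These differ 576-fold. Both catalytic chains of the ATP synthase came high in the order, Atp5a1 (alpha) at 517 and Atp5b (beta) at 428 CPM per kb. Among the complexes, the medians were 181 CPM per kb for complex III, 148 for complex IV, 98.8 for complex II and 90.1 for the ATP synthase. Core subunits of complex I had a median of 61.5 and accessory subunits one of 47.6. The 8 complex I assembly factors, which help build the complex and then leave it, had a median of 6.08, and the highest of them, Ndufaf8 at 15.4, was below the lowest core subunit, Ndufs1 at 22.8.

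**Figure D1:**
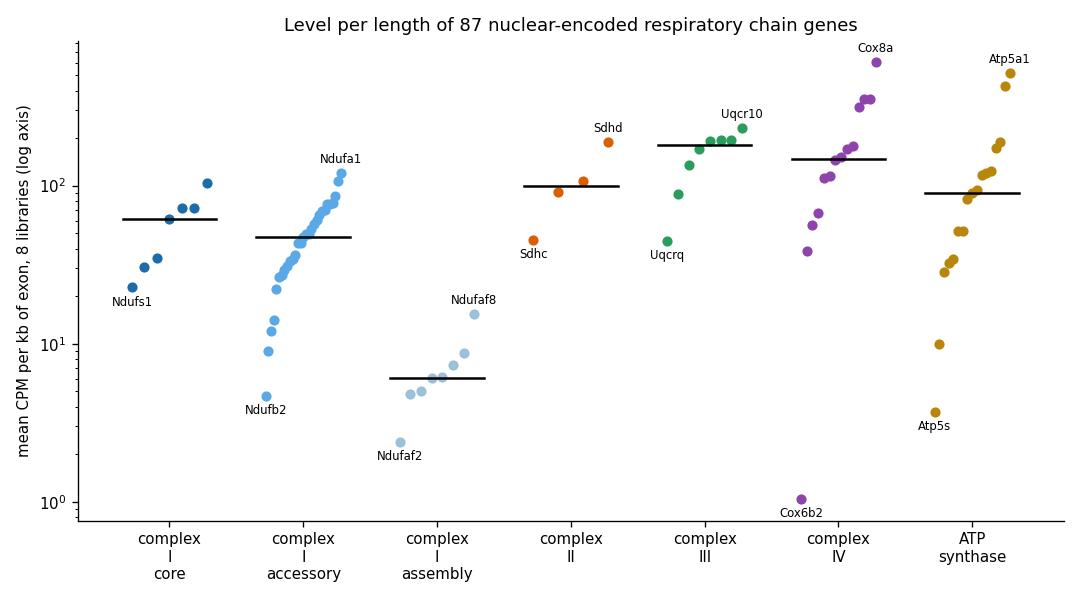
Level per length of the 87 tested genes by role, as mean CPM per kb of exon over 8 libraries on a log axis; each point is 1 gene and the bar is the median of the role. The complex I assembly factors lie between 2.39 and 15.4, whereas complex III lies between 44.6 and 231.

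Several subunits exist as alternative forms that are restricted to particular tissues. The ubiquitous forms made up nearly all of the transcripts per length in every library. In the library with the lowest share, Cox4i1 took 99.95% of its family, Cox6a1 took 99.97% and Cox6b1 took 99.5%. Cox8a (lowest share 99.9%) and Ndufa4 (lowest share 99.4%, the rest being the hypoxia-linked Ndufa4l2) had the same standing. The heart and muscle form Cox6a2 and the hypoxia-linked lung form Cox4i2 never exceeded 1 count in a library. Cox7a1, known as the heart and muscle form of subunit 7a, was the exception. It took 11.7% to 15.2% of the COX7A family in the 4 colon libraries and 17.9% to 24.5% in the 4 ileum libraries, without overlap, while muscle markers summed to at most 1.31 CPM. Cox7a2, the liver and general form, took 46.0% to 54.3%, and Cox7a2l, which links complexes III and IV into supercomplexes, took 27.2% to 38.5%. Of the transcripts per length of the 3 genes for the same mature subunit c of the ATP synthase, Atp5g3 held 62.6% to 69.1%, Atp5g1 16.1% to 21.8% and Atp5g2 11.6% to 18.3%. These shares depend on the exon lengths deposited, which were 4912 bases for Atp5g1 and 2181 for Atp5g3. Counts over the 8 libraries were 23218 for Atp5g1, 35723 for Atp5g3 and 6603 for Atp5g2. An exon length longer than the transcripts present would make a share too low. Of the exon sequence of Atp5g2, 38.3% of the 50-base words were also found in another gene, so its share is less certain.

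Deletion of DDX5 was examined next in the colon. No respiratory chain gene differed between genotypes at an adjusted p below 0.05 in edgeR's quasi-likelihood test (0 of 87, where the background over all 15362 genes tested was 0%) or in DESeq2 (0 of 87). DESeq2 with the replicate block called 0.176% of all genes higher and 0.247% lower. At an unadjusted p below 0.05, 1 gene was higher and 0 were lower, against a background of 12% of all genes in either direction. A log2 difference of at least 0.5 together with an unadjusted p below 0.05 was met by 0 of the 87, against 6.71% of all genes. Log2 differences were small, with a median of 0.09 against -0.00 for all genes, and 70 were above 0 and 17 below. In 43 of the 87 genes both DDX5KO libraries lay above both WT libraries (background 23.8%) and in 3 both lay below (background 20.7%). In 86 of the 87 genes the 95% interval of the log2 difference lay between -1 and 1, and the exception was Cox6b2, whose interval reached 1.33. The median log2 difference was 0.06 without DDX5KO colon replicate 1 and 0.15 without DDX5KO colon replicate 2. DDX5KO colon replicate 2 differed from replicate 1 by a median of -0.09 across the 87 genes. That gap went with exon length (Spearman's rho 0.32 across the 87 genes and 0.14 across all genes). For the genotype difference itself rho was -0.11 across the 87 genes. Sums of some cell type markers differed with the genotype in colon. Mature colonocyte markers summed to 4364 and 4766 CPM in WT and to 5757 and 6211 CPM in DDX5KO, goblet cell markers to 43598 and 49058 CPM in WT and to 25028 and 38806 CPM in DDX5KO, and tuft cell markers to 53.0 and 59.5 CPM in WT and to 16.4 and 37.9 CPM in DDX5KO. None of these sums overlapped between genotypes, nor did those of T cell markers given above. Sums of epithelial, B and plasma cell and endothelium markers were also higher in DDX5KO without overlap, and those of myeloid markers lower. Sums of stem and transit cell, ileal enterocyte, Paneth, enteroendocrine, stroma and muscle markers overlapped. Such separation is common with 2 libraries per group, as the 23.8% and 20.7% of all genes show. The part of these markers and of exon length in the 43 and 3 genes was not tested.

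The gene with the smallest p in colon was Cox6a1, the general form of a complex IV subunit. Its level was 251 and 240 CPM in WT colon and 310 and 277 CPM in DDX5KO colon. Both DDX5KO libraries were thus above both WT libraries, but the log2 difference of 0.24 (SE 0.09) did not pass adjustment (edgeR adjusted p = 0.389). Cox6c, another complex IV subunit, lay at 242 and 232 CPM in WT and at 292 and 261 CPM in DDX5KO (log2 difference 0.21, adjusted p = 0.429). The complex I assembly factor Ndufaf3 differed by 0.31 (adjusted p = 0.448), the core subunit Ndufs7, which carries an iron-sulfur cluster, by 0.21 (adjusted p = 0.478) and the small complex III subunit Uqcr11 by 0.18 (adjusted p = 0.479), all on the log2 scale.

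Subunits of the catalytic and structural core were read in the same comparison. Ndufs1, the largest subunit of complex I, had a log2 difference of -0.06, and the pair Ndufv1 and Ndufv2, which take electrons from NADH, had 0.12 and 0.10. For the 4 genes of succinate dehydrogenase the values ran from -0.07 for the membrane anchor Sdhd to 0.11 for the iron-sulfur subunit Sdhb. Uqcrc1 and Uqcrc2, the core proteins of complex III, stood at 0.10 and 0.17, and Uqcrfs1, the Rieske protein, at -0.01. Atp5a1 and Atp5b differed by 0.05 and 0.04. None of these passed the test.

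In the ileum the result was the same in kind. No respiratory chain gene passed an adjusted p of 0.05 in edgeR (0 of 87, against 0.697% or 98 of 14068 genes) or in DESeq2 (0 of 87). DESeq2 with the replicate block called 0.0388% of all genes higher and 0.0388% lower. Without the replicate block edgeR called 0.00711% of all genes higher and 0% lower, so the background of 0.697% rested on that block. At an unadjusted p below 0.05, 3 were higher and 1 was lower in DDX5KO, against 12.3% of all genes. The criterion of a log2 difference of at least 0.5 with an unadjusted p below 0.05 was met by 0, against 7.35% of all genes. The median log2 difference was 0.05 (all genes -0.00), with 58 genes above 0 and 29 below. It was 0.01 (all genes -0.04) when no gene was filtered out, and -0.11 (all genes -0.17) when libraries were scaled by their total counts alone. Both DDX5KO libraries lay above both WT libraries in 17 of 87 genes (background 18.7%) and below in 3 (background 20.8%). Under total counts alone these 2 counts became 3 (background 7.39%) and 15 (background 38.4%). In 86 of 87 genes the 95% interval stayed between -1 and 1, and again the interval of Cox6b2 went further, to 1.84.

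Ndufs7 had the smallest p in ileum. It lay at 56.2 and 53.3 CPM in WT ileum and at 77.1 and 69.2 CPM in DDX5KO ileum, and the groups did not overlap (log2 difference 0.42, SE 0.13, edgeR adjusted p = 0.225). Ndufaf8, an assembly factor of complex I, lay at 11.6 and 11.3 CPM in WT and at 17.5 and 13.4 CPM in DDX5KO (0.43 on the log2 scale, adjusted p = 0.349). Sdhc, a membrane anchor of complex II, lay at 140 and 142 CPM in WT and at 182 and 166 CPM in DDX5KO (0.31, adjusted p = 0.403). The 1 gene on the other side was Ndufa3, an accessory subunit of complex I. Its levels were 53.4 and 53.9 CPM in WT and 42.7 and 41.1 CPM in DDX5KO (log2 difference -0.36, SE 0.14, adjusted p = 0.317). The exons of Ndufa3 overlap those of Tfpt on the other strand, so reads of the pair may not be separable. Atp5s followed with 0.45 (adjusted p = 0.414).

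**Figure D2:**
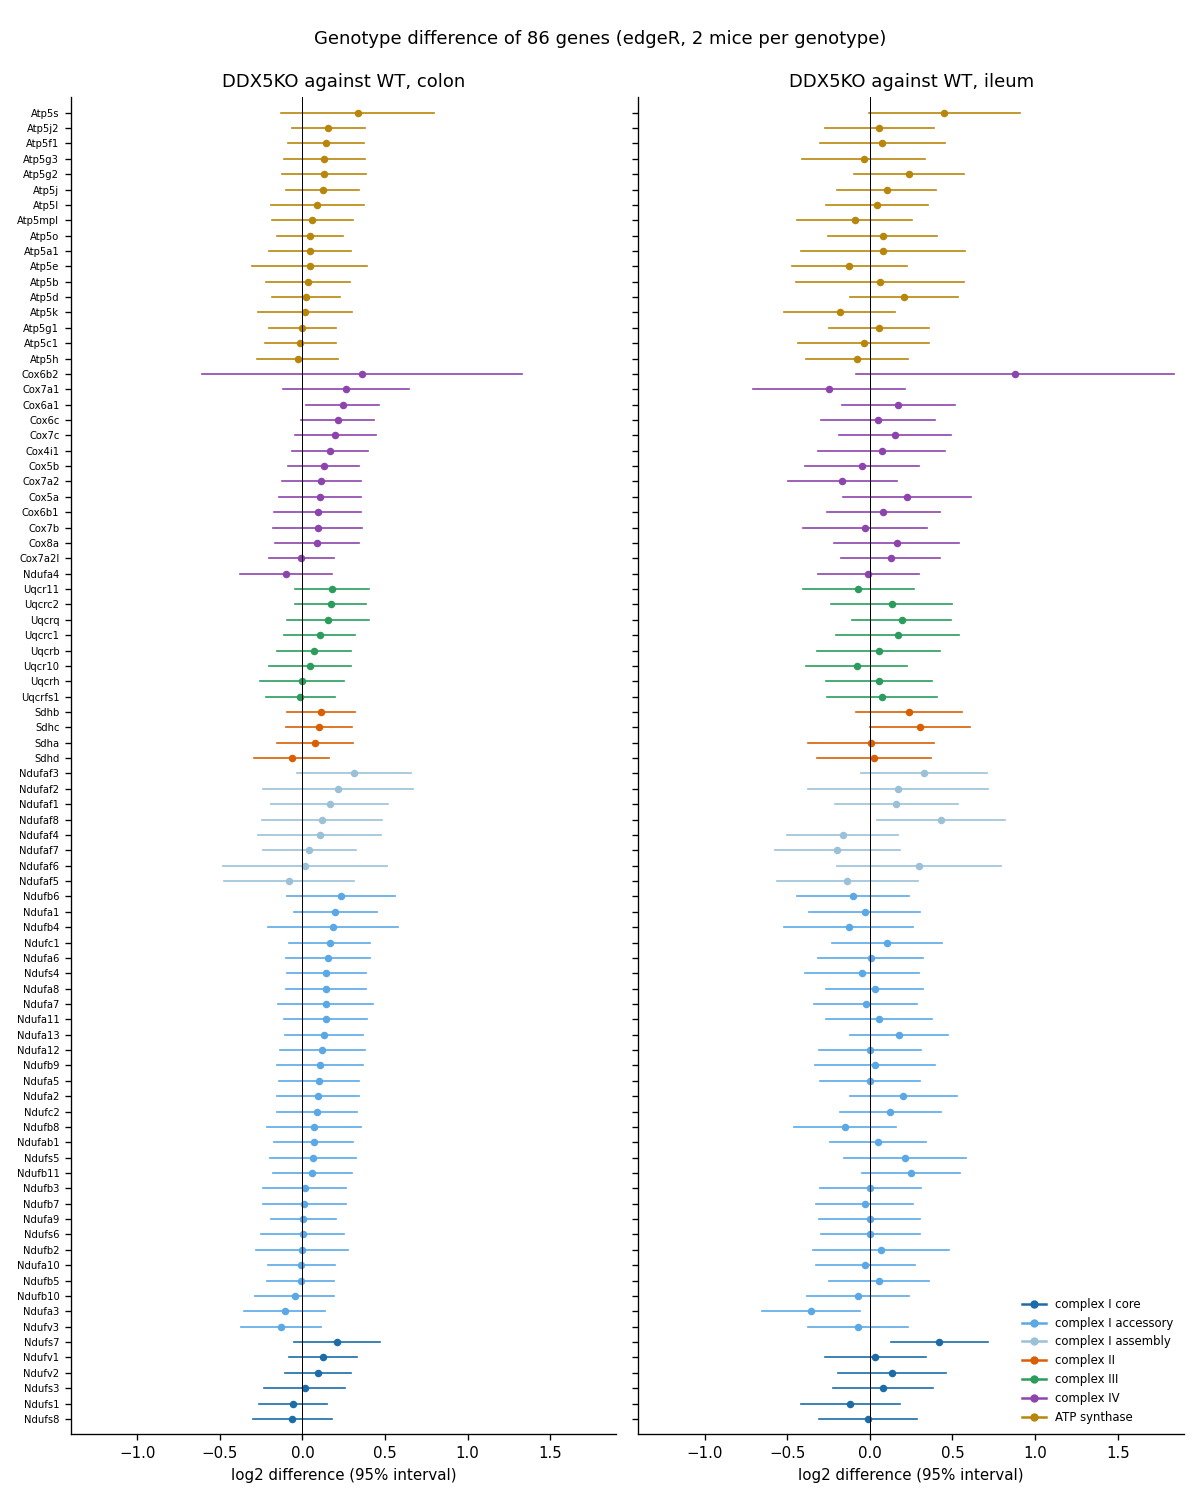
Log2 difference between DDX5KO and WT for 86 of the 87 tested genes in colon (left) and ileum (right), from edgeR with 2 mice per genotype; points are estimates, lines are 95% intervals and colours mark the role. Apart from Cox6b2, all intervals lie between -1 and 1, and no gene passed an adjusted p of 0.05.

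The ileum comparison rested on 2 DDX5KO libraries that differed from each other. The 87 genes had a median deviation from their own 8-library mean of 0.14 (log2 CPM) in DDX5KO ileum replicate 1, where 70 of 87 were above the mean, and of -0.10 in replicate 2, where 28 were above. The other libraries had medians from -0.06 to 0.12. Without DDX5KO ileum replicate 1 the median genotype difference was -0.08, and without replicate 2 it was 0.17, so its sign was set by which of these libraries was kept. Without replicate 2, 5 genes met the criterion of 0.5 and an unadjusted p below 0.05, all of them higher, against a background of 4.76% higher genes. In that fit of 7 libraries a single DDX5KO ileum library was left, which was assumed to vary like the other groups. In DDX5KO ileum replicate 2 the genes differed from replicate 1 by a median of -0.23 on the log2 scale, against 0.02 for all genes. This gap went with exon length (Spearman's rho 0.27 across the 87 genes and 0.20 across all genes, which are not independent). The same relation was seen between the DDX5KO colon replicates (0.32 across the 87 genes), whereas it was -0.05 in WT colon and 0.04 in WT ileum. Mature ileal enterocyte markers summed to 8885 CPM in replicate 1 and 4958 CPM in replicate 2, and epithelial markers to 15565 and 11596 CPM. The part of the repeat-like counts, of length and of these markers in the gap was not tested.

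**Figure D3:**
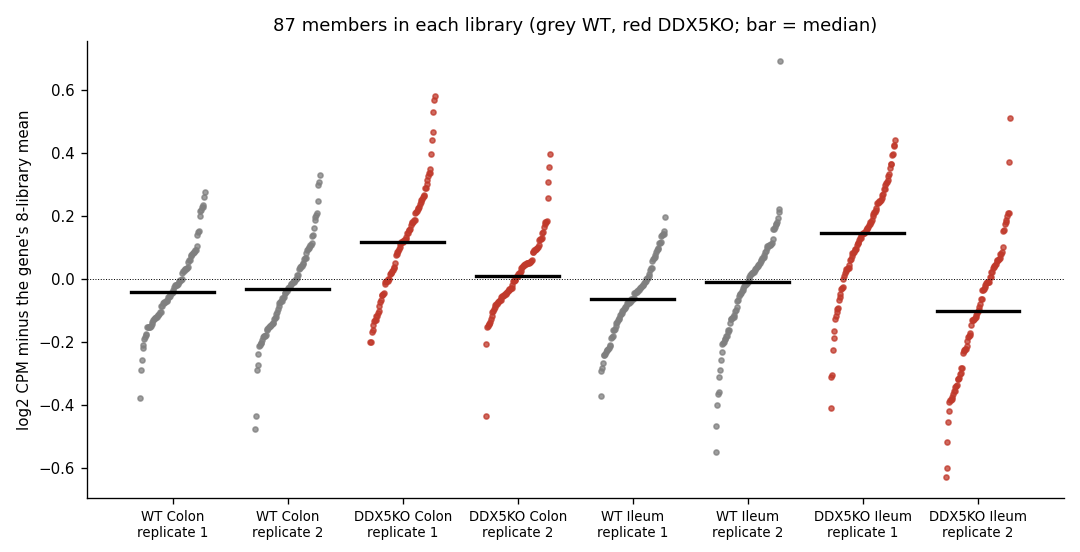
Deviation of each of the 87 tested genes from its own 8-library mean (log2 CPM, pseudocount 0.5), sorted within each library; grey is WT, red is DDX5KO and the bar is the median. DDX5KO ileum replicate 1 has its median at 0.14 and replicate 2 at -0.10.

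Summed over the 92 genes, the level was 13641 and 13442 CPM in WT colon and 14752 and 14040 CPM in DDX5KO colon. Both DDX5KO sums exceeded both WT sums (log2 difference 0.09, exact two-sided permutation p = 0.33, the smallest that 2 against 2 allows). In ileum the sums were 14301 and 14556 CPM in WT and 16310 and 13795 CPM in DDX5KO, which enclose the WT values (log2 difference 0.06, exact permutation p = 1). In colon the sums of every role were higher in both DDX5KO libraries than in both WT libraries. Complex IV had sums of 2820 and 2783 CPM in WT colon and of 3283 and 2919 CPM in DDX5KO colon. The ATP synthase had 5359 and 5246 CPM in WT colon and 5588 and 5480 CPM in DDX5KO colon.

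Whether the genotype difference itself depended on the tissue was tested with an interaction term. No respiratory chain gene passed (0 of 87, against 0.0124% or 2 of 16178 genes), and 0 of 87 had an unadjusted p below 0.05 (background 4.67%). DESeq2 gave 0 as well (backgrounds 0.0348% above 0 and 0.00498% below). The 5 genes with the smallest p had interaction terms of -0.26 (Ndufa3), -0.36 (the accessory subunit Ndufb6), -0.56 (Cox7a1), -0.28 (Cox7a2) and 0.30 (Ndufaf8) on the log2 scale, all with an edgeR adjusted p of 1. For Cox7a1 the 95% interval of that term ran from -1.35 to 0.24.

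The larger differences lay between the gut segments. In WT mice, 4 of 87 genes were higher in ileum than in colon (background 17.4%) and 5 were lower (background 16.8%) at an edgeR adjusted p below 0.05. Both shares were under those of all genes, and a log2 difference of at least 0.5 in either direction was seen in 5.75% of the 87 against 43.2% of all genes. The median absolute log2 difference was 0.14, against 0.41 for all genes. All genes tested were not matched to the 87 for expression level, and the part of level in these contrasts was not tested. The higher genes were Sdha, Uqcrc1, Uqcrq and Cox7a1, and the lower ones were Uqcr10, Ndufa1, Ndufa7, Ndufa4 and Ndufaf2. These 9 genes kept their direction under all 4 scalings tried, but not their calls. Under total counts alone 0 genes were called higher (background 11.5%) and 9 lower (background 24.7%), so that none of the 4 higher genes passed. Only 1 higher gene passed when no gene was filtered out (background 7.13%), and 2 did without the repeat-like genes (background 16.9%). They did not withstand the loss of a WT library: without WT colon replicate 1 only Ndufa4 and Ndufaf2 were still called, without WT colon replicate 2 no gene, without WT ileum replicate 1 only Cox7a1 and Ndufaf2, and without WT ileum replicate 2 only Ndufa4. Uqcrc1 and Uqcrq also lost the call without either DDX5KO colon library, which shared the estimate of the spread.

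Sdha oxidises succinate and lies on chr13:74322254-74350280 (minus strand, GRCm38, as for the other gene positions given). It was found at 373 and 355 CPM in WT colon and at 498 and 506 CPM in WT ileum. The corresponding DDX5KO values were 378 and 395 CPM in colon and 515 and 493 CPM in ileum. All 4 ileum libraries were therefore above all 4 colon libraries. The log2 difference was 0.46 in WT (SE 0.12, edgeR adjusted p = 0.0155) and 0.38 in DDX5KO (SE 0.12, adjusted p = 0.0335). Its partner Sdhb (chr4:140961203-140979193, plus strand) lay at 177, 175, 189 and 196 CPM in the WT and DDX5KO colon libraries and at 203, 208, 255 and 229 CPM in the matching ileum libraries. The ileum libraries were again the higher ones, and the difference passed in DDX5KO (0.33, SE 0.11, adjusted p = 0.04) but not in WT (0.22, adjusted p = 0.139).

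In complex III, members of the same enzyme went opposite ways. Uqcrc1 (chr9:108936633-108949623, plus strand), a core protein that faces the matrix, lay at 302 and 299 CPM in WT colon and at 399 and 389 CPM in WT ileum, and at 327, 325, 484 and 403 CPM in the DDX5KO colon and ileum libraries. It was higher in ileum in WT (0.39, SE 0.13, edgeR adjusted p = 0.0443) and in DDX5KO (0.45, SE 0.13, adjusted p = 0.0263). Uqcrq (chr11:53427922-53430831, minus strand), a small subunit next to cytochrome b, lay between 66.1 and 77.9 CPM in the 4 colon libraries and between 82.7 and 106 CPM in the 4 ileum libraries (0.35 in WT, adjusted p = 0.0426, and 0.38 in DDX5KO, adjusted p = 0.0321). Uqcr10 (chr11:4701973-4704342, minus strand), a small subunit near cytochrome c1 and the Rieske protein, lay at 154 and 158 CPM in WT colon and at 115 and 113 CPM in WT ileum. In DDX5KO mice it lay at 175 and 150 CPM in colon and at 117 and 99.2 CPM in ileum. It was lower in ileum in WT (-0.45, SE 0.12, adjusted p = 0.0196) and in DDX5KO (-0.59, SE 0.12, adjusted p = 0.00609). The Rieske protein Uqcrfs1 (0.07 in WT) and the second core protein Uqcrc2 (0.07) did not pass.

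The raw ratio of Uqcr10 to Uqcrc1 counts, which does not depend on scaling, was 0.511 and 0.527 in WT colon and 0.288 and 0.291 in WT ileum, and 0.535, 0.463, 0.241 and 0.246 in the DDX5KO colon and ileum libraries. Its log2 tissue difference within the 4 mice averaged -0.94 ± 0.15 (SD, n = 4). This ratio was chosen after the calls were known and is given as a description. The same holds for Uqcr10 to Uqcrq, which ran from 2.06 to 2.34 in colon and from 1.09 to 1.37 in ileum.

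Complex I held the lower accessory subunits Ndufa1 and Ndufa7 beside core subunits that leaned the other way. Ndufa1 (chrX:37187588-37191163, minus strand), a small membrane-anchored subunit needed for assembly, lay at 58.6 and 56.7 CPM in WT colon and at 40.1 and 38.0 CPM in WT ileum, and at 70.8, 62.7, 45.0 and 32.1 CPM in DDX5KO colon and ileum. Every ileum library was below every colon library (log2 difference -0.56 in WT, SE 0.16, edgeR adjusted p = 0.0244, and -0.79 in DDX5KO, SE 0.16, adjusted p = 0.00552). Ndufa7, of the peripheral arm, lay between 67.8 and 83.1 CPM in colon and between 35.9 and 51.1 CPM in ileum (-0.64, adjusted p = 0.023, and -0.81, adjusted p = 0.00845). All 7 core subunits had positive log2 differences in both genotypes, but none passed: Ndufs1 stood at 0.20 in WT (adjusted p = 0.195) and Ndufv1 and Ndufv2 at 0.10 each. With libraries scaled by total counts alone, no core subunit was higher in ileum in all 4 mice.

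The lowest log2 value in both genotypes was that of Ndufaf2 (chr13:108002715-108158623, minus strand), a complex I assembly factor. It lay between 8.13 and 10.5 CPM in colon and between 4.50 and 5.45 CPM in ileum (-0.78 in WT, SE 0.17, adjusted p = 0.00801, and -0.85 in DDX5KO, SE 0.18, adjusted p = 0.00653 with edgeR). Of the 50-base words in its exons 64.1% occurred in other genes, and an antisense gene overlaps it, so its value may be mixed with theirs. Ndufa4 (chr6:11900292-11907497, minus strand), first assigned to complex I and now counted with complex IV, lay between 57.5 and 66.3 CPM in colon and between 42.1 and 46.9 CPM in ileum, without overlap (-0.51 in WT, SE 0.11, adjusted p = 0.00732, and -0.44 in DDX5KO, SE 0.11, adjusted p = 0.0164).

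Cox7a1 (chr7:30184144-30186078, plus strand) had the largest increase in WT, a log2 difference of 0.89 (SE 0.25, edgeR adjusted p = 0.0237). Its values were 22.1 and 20.7 CPM in WT colon and 32.2 and 47.0 CPM in WT ileum. In DDX5KO mice they were 31.4 and 21.3 CPM in colon and 38.2 and 27.7 CPM in ileum. The colon and ileum values overlapped once the genotypes were combined, and DDX5KO alone gave 0.33 (adjusted p = 0.339). Cox7a2 stood at -0.02 in WT and -0.30 in DDX5KO, neither past the threshold. The ratio of Cox7a1 to Cox7a2 counts ran from 0.123 to 0.169 in colon and from 0.203 to 0.289 in ileum.

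**Figure D4:**
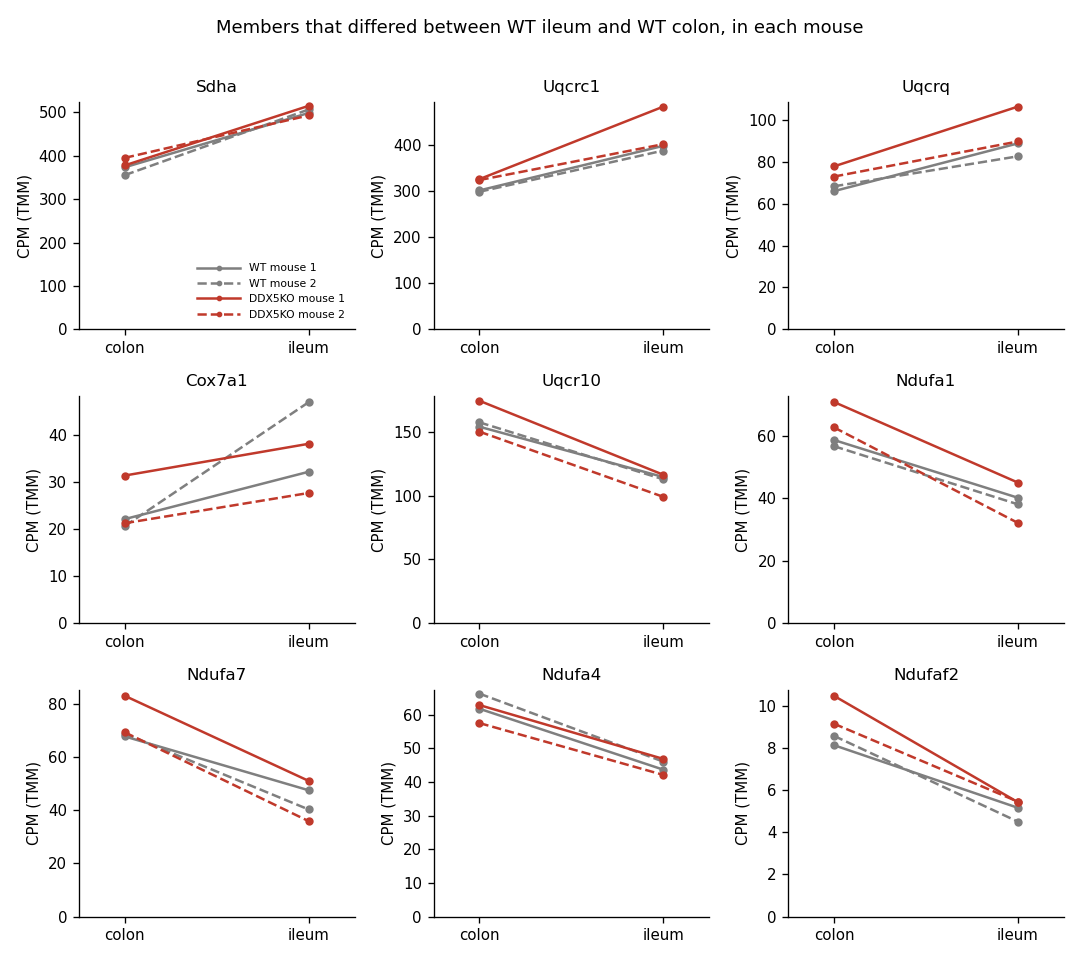
CPM of the 9 genes that differed between WT ileum and WT colon, with each line joining the colon and ileum library of 1 mouse; grey is WT, red is DDX5KO and dashed lines are the mouse numbered 2 of each genotype. All 4 mice go the same way for each gene, and Cox7a1 is the one whose ranges overlap, at 20.7 to 31.4 CPM in colon and 27.7 to 47.0 CPM in ileum.

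In DDX5KO mice, 5 of 87 genes were higher in ileum (background 18%) and 9 were lower (background 17.3%). To Sdha, Sdhb, Uqcrc1 and Uqcrq was added Atp5d, the delta chain in the stalk of the ATP synthase (chr10:80138632-80145818, plus strand), at 218 and 213 CPM in colon and 292 and 271 CPM in ileum (0.39, SE 0.10, edgeR adjusted p = 0.0205). The exons of Atp5d overlap those of Cbarp on the other strand. The lower genes included the complex I accessory subunits Ndufb4 (-0.59, adjusted p = 0.0284), Ndufa6 (-0.48, adjusted p = 0.0272) and Ndufb8 (-0.44, adjusted p = 0.0386), and the assembly factor Ndufaf7 (-0.57, adjusted p = 0.0104). Of the genes called, 8 were called in both genotypes, which is 8 of 9 in WT and 8 of 14 in DDX5KO. Both comparisons come from 1 fit with a shared estimate of the spread, so they are not independent. The share of all genes called in both is not given here, and the 8 are a description. A log2 difference of at least 0.5 was seen in 6.90% of the 87 genes and in 47.1% of all genes. Under scaling by total counts alone, which put the median of all genes at -0.40, 0 genes were called higher (background 10.3%) and 34 lower (background 36.4%). Sdhb then stood at -0.02, Sdha at 0.02, Uqcrq at 0.03, Atp5d at 0.03 and Uqcrc1 at 0.09, while the 9 lower genes kept their sign.

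Single libraries decided many of the DDX5KO calls. None of the 5 higher genes was still called without DDX5KO colon replicate 1, DDX5KO colon replicate 2, DDX5KO ileum replicate 1 or either WT colon library, all of which shared the estimate of the spread, and only Atp5d was without either WT ileum library. Without DDX5KO ileum replicate 2 all 5 were called, with 8 in all (background 16.3%). The number of lower genes ran from 5 to 20, and 20 were counted without DDX5KO ileum replicate 1 (background 12.8%). Ndufa1, Ndufa7, Ndufaf2, Ndufaf7 and Uqcr10 were called in each of these 8 fits.

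**Figure D5:**
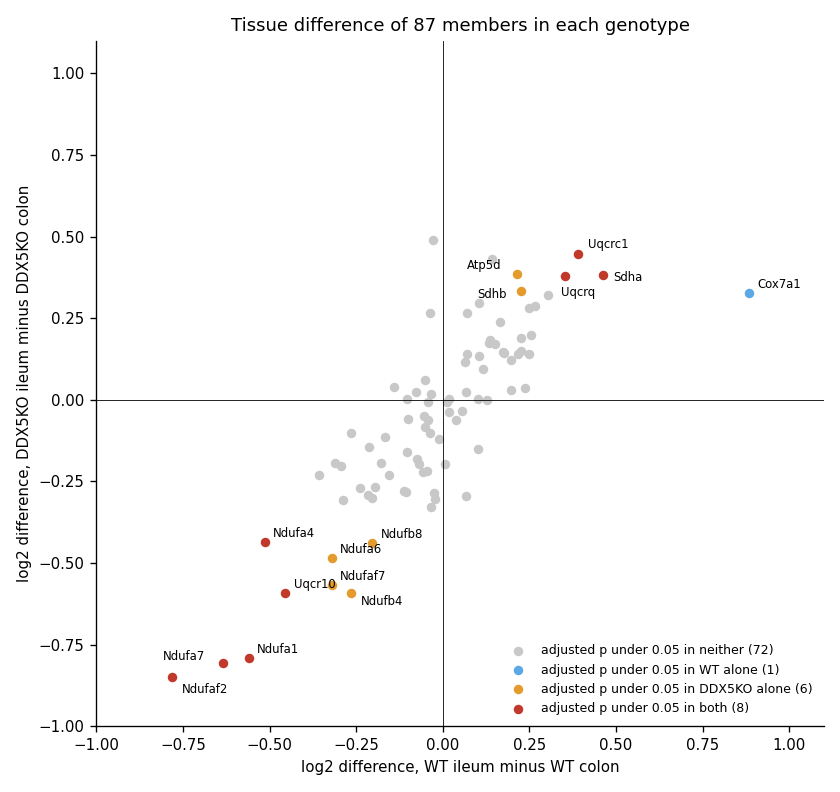
Log2 difference between ileum and colon in WT (x axis) and in DDX5KO (y axis) for the 87 tested genes; colours mark in which genotype a gene had an edgeR adjusted p below 0.05. The 8 genes called in both genotypes have the same sign in both, from -0.85 for Ndufaf2 to 0.46 for Sdha.

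The tissue difference was also averaged over the 4 mice with the mouse as a block, a fit added after the data had been seen. It called 9 of 87 genes higher in ileum (background 25.6%) and 16 lower (background 26%). Beside genes already named, the higher ones were Atp5o, in the stalk of the ATP synthase (0.26), Ndufb7, an accessory subunit in the intermembrane space (0.23), and Sdhc (0.20). The further lower ones were Atp5g2 (-0.31), the complex III subunit Uqcrb (-0.31), the complex IV subunits Cox7b (-0.27), Cox6a1 (-0.26) and Cox7a2l (-0.25), and the complex I accessory subunits Ndufb10 (-0.26) and Ndufb9 (-0.24). Under scaling by total counts alone 4 of the 9 higher genes turned (Sdhb to -0.01, Sdhc to -0.09, Atp5o to -0.03 and Ndufb7 to -0.06), whereas all 16 lower genes stayed below 0. The median of all genes was then -0.32, and 0 genes were called higher (background 14.9%) and 47 lower (background 44.1%). Without WT mouse 1 the counts were 1 higher and 9 lower (backgrounds 17.4% and 16.5%), and without WT mouse 2 they were 2 and 8 (17.3% and 16.5%). Without DDX5KO mouse 1 they were 7 and 22 (25% and 24.2%), and without DDX5KO mouse 2 they were 16 and 13 (25.7% and 26.1%).

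By role, all 4 complex II genes were higher in ileum in all 4 mice (0 of 4 under total counts alone), and so were 5 of 7 core subunits of complex I and 8 of 17 ATP synthase genes. Complex IV had 1 of 14 tested genes higher and 9 lower in all 4 mice. The accessory subunits of complex I had 5 of 29 higher and 9 lower, the assembly factors 1 and 3 of 8, and complex III 2 and 2 of 8. No gene of any role was higher in all 4 mice under total counts alone (background 16.2%), where 58 of 87 were lower (background 50.7%). Over the 87 genes, 26 were higher and 25 lower in all 4 mice, which is to be read beside 30.4% and 32.8% of all genes. The tissue difference went with exon length across the 87 genes (Spearman's rho 0.31 in WT and 0.26 in DDX5KO) and less so across all genes (0.08 and 0.05); genes are not independent, and the part of length was not tested. Markers of the mature cells differed with the tissue as well. Ileal enterocyte markers summed to 30.4 to 101 CPM in colon and 4958 to 8885 CPM in ileum, colonocyte markers to 4364 to 6211 and 2554 to 3071 CPM, and stem and transit cell markers to 344 to 516 and 1070 to 1484 CPM. Their part in the tissue differences was not tested.

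Genes that surround the chain were read from fixed lists. None of the 9 lists had a gene past an edgeR adjusted p of 0.05 between genotypes in colon or ileum, or for the interaction. The WT tissue counts of this and the following lists are to be read beside all genes tested. Of these, 17.4% were higher and 16.8% lower in WT ileum. Between WT ileum and WT colon, the 12 mitochondrially encoded subunits that were tested had 4 higher and 0 lower, with a median log2 difference of 0.46. These were mt-Nd5 (1.70), mt-Nd2 (1.37), mt-Nd4 (1.22), all of complex I, and mt-Cytb (0.67), the cytochrome b of complex III. In DDX5KO mice 5 were higher (background 18%) and 0 lower (background 17.3%), with a median of 0.72. Levels of mt-Nd5 ran from 207 to 279 CPM in colon and from 705 to 956 CPM in ileum, without overlap. In the colon genotype comparison the mitochondrially encoded subunits had a median log2 difference of -0.27, beside 0.09 for the nuclear-encoded genes, with no gene past the test in either list.

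Among 12 regulators of mitochondrial biogenesis tested, 2 were higher and 2 lower in WT ileum (backgrounds 17.4% and 16.8%). Hnf4a, a factor of enterocyte identity (0.64, edgeR adjusted p = 0.021), and the orphan receptor gene Esrra (0.46, adjusted p = 0.046) were higher. The coactivator gene Ppargc1b (-0.52, adjusted p = 0.011) and Esrrg (-0.65, adjusted p = 0.035) were lower. Nrf1, whose motif is shown above, lay between 32.5 and 38.6 CPM in all 8 libraries (0.06, adjusted p = 0.734). Ppargc1a, the best known coactivator of the pathway, did not pass (0.34, adjusted p = 0.185).

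Of 19 genes of the citrate cycle and of pyruvate entry into it, which supply the chain, 5 were higher and 3 lower in WT ileum. The higher ones were Mdh2 (1.08), Ogdh (0.95), Sucla2 (0.85), Cs (0.74) and Dlst (0.68). Lower were Suclg2 (-0.75), Idh2 (-0.42) and Dlat (-0.98), which belongs to pyruvate dehydrogenase rather than to the cycle. Sucla2 and Suclg2 encode the alternative subunits of succinyl-CoA synthetase that set its use of ADP or GDP. Of 19 genes for electron carriers and coenzyme Q synthesis, 3 were higher, among them the glycerol-3-phosphate dehydrogenase gene Gpd2 (2.35) and the cytochrome c gene Cycs (0.67), and 3 were lower. Etfa (0.42) and Etfb (-0.65), which form 1 electron transfer flavoprotein, went opposite ways. Of 44 assembly factors outside the name rule, 2 were higher and 4 lower, the latter led by Higd1a (-1.90), a hypoxia-induced factor of complex IV, and Surf1 (-0.83), which is needed for complex IV assembly.

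Of 19 genes for the upkeep and expression of mitochondrial DNA, 1 was higher (Lrpprc, which stabilises mitochondrial mRNA, 0.72) and 3 were lower, among them the polymerase genes Polg (-0.38) and Polg2 (-0.70). The 77 mitochondrial ribosomal proteins had 2 higher and 8 lower (median -0.04), and the 79 cytoplasmic ones 0 higher and 6 lower (median -0.29). Of 20 glycolysis rows tested, 7 were higher, such as Pklr (2.36), the form of pyruvate kinase also found in liver, and 5 were lower, such as Ldhb (-3.15) and Hk1 (-2.18).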

How the data were processed

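Paired DDX5KO and WT mice were cohoused littermates, and same-numbered colon and ileum libraries of a genotype came from the same mouse, as shown by the animal numbers that the study's supplementary tables give in their column names for both tissues. Per the labels and the study's methods, the authors aligned reads to mm10 with STAR (2.6.1a), counted them per gene with featureCounts and ran DESeq2 (1.18.1) with harvest as a covariate. Whether counting used strand is not given in the sources used here. The authors deposited 1 table per tissue with raw counts, a normalized signal, exon length and gene type. In each table all (100%) nonzero normalized signal values equalled the count divided by a single size factor per library, so only the deposited counts were analysed. The deposited comparison columns (mean, log2 fold change with its error and score, and p-value) hold the authors' findings and were not used. Gene symbols that appeared as calendar dates (26) were set back, and 0 per-sample columns were left without a sample.

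Genes with too few counts were removed with filterByExpr (minimum count 10), libraries were scaled by TMM, and edgeR's quasi-likelihood test (edgeR 4.0.16, R 4.3.3) was fitted over all genes with Benjamini-Hochberg adjustment. Genotype was tested within each tissue with the replicate number as a block, in place of the harvest covariate of the study's methods. The labels do not say which WT and DDX5KO libraries shared a harvest. That same-numbered libraries form a pair was therefore an assumption. The tissue comparisons and the interaction used all 8 libraries without a block, and the average over 4 mice used the mouse as a block. Same-numbered libraries of the 4 pairings had correlations of their deviations of -0.0004 (WT and DDX5KO colon), 0.13 (WT and DDX5KO ileum), 0.14 (WT colon and ileum) and 0.14 (DDX5KO colon and ileum). CPM values are TMM-scaled over 8 libraries, and a pseudocount of 0.5 was added before logs. Scripts were tested on simulated data. The 92 genes, the gene lists and the motifs were chosen with earlier results of these data known. Genes named are those past an adjusted p of 0.05, or the 5 largest in each direction where more than 10 passed, or the 5 with the smallest p where fewer than 5 passed, plus a fixed panel of core subunits and isoforms. Further genes are named where a count of the text would otherwise be unclear. Alternatives were RLE and total-count scaling, scaling on protein-coding genes, no filter, no repeat-like genes, DESeq2 (1.42.0), the block, and each library left out. Gene positions come from GENCODE vM21 (GRCm38), which holds 86 of the 92 genes under the same versioned identifier. Of the 92 genes, 20 shared 10% or more of their 50-base words with other genes. Exons of 29 overlapped those of a gene on the other strand. Not all of these genes are marked where they are named. Protein sequences were not used here, and the values of a few single genes are not reported here.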

Additional observations from a re-analysis of the deposited data

How the results depend on the processing

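The genotype and interaction counts at an adjusted p below 0.05 were 0 under every alternative run, whichever library was left out, including the fits without the replicate block and the fit of the interaction with it. With the mouse as a replicate block the tissue counts were 4 higher and 6 lower in WT (backgrounds 19.5% and 18.3%). In DDX5KO they were 6 higher and 9 lower (backgrounds 19.4% and 18.3%). The block changed no other call count by over 1.5 times. Leaving out 1 library at a time gave median log2 differences of 0.0593 to 0.15 (genotype, colon), -0.08 to 0.17 (genotype, ileum), -0.0337 to 0.0047 (WT tissue), -0.18 to 0.11 (DDX5KO tissue) and -0.18 to 0.10 (interaction). It gave 0 to 4 higher and 0 to 5 lower genes in WT tissue, 0 to 8 and 5 to 20 in DDX5KO tissue, and 1 to 16 and 8 to 22 over 4 mice. The criterion in ileum was met by 0 to 5 higher genes. Scaling by total counts alone gave 0 higher and 9 lower genes with a median of -0.23 in WT tissue (11.5% and 24.7% of all genes, median -0.23), 0 and 34 with -0.39 in DDX5KO tissue (10.3% and 36.4%, median -0.40), 0 and 47 with -0.31 over 4 mice (14.9% and 44.1%, median -0.32), a median of -0.19 for the interaction and 1 lower gene by the criterion in ileum (8.94% of all genes). Sdhb in DDX5KO tissue then stood at -0.024. Without a filter 1 gene was higher in WT tissue (background 7.13%, median -0.0696), 0 in DDX5KO tissue (background 7.42%) and 4 over 4 mice (background 9.95%, median -0.092). Without the repeat-like genes 2 were higher in WT tissue (background 16.9%), and asking for a log2 difference of 0.5 as well left 1 in WT and 0 in DDX5KO. The cause of these shifts was not tested. Of the results for the genes named by the rule, 486 kept their direction and side of the threshold, 103 kept the direction but no longer passed, and 1 turned. Outside that tally, Sdhb, Sdhc, Atp5o and Ndufb7 turned over 4 mice under total counts alone (-0.01, -0.09, -0.03 and -0.06). The 2 mice per group limit the precision that the 95% intervals show.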

Other observations

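Among rows whose names match the same pattern but that are not protein coding, 12 were processed pseudogenes with at most 26 counts in a library. Ndufb1-ps, listed as a bidirectional promoter lncRNA, held 1093, 1303, 1264 and 1267 counts in the WT and DDX5KO colon libraries and 924, 775, 614 and 354 counts in the WT and DDX5KO ileum libraries.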
